A study of Mus musculus with 4 samples.

Results

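The regions described here lie in 4 clusters of vomeronasal receptor genes of the mouse, as read by a DNA methylation array in fetal liver. Members were chosen by position on build mm9: probes that start within chromosome 7 from 92 to 94.1 Mb (Vmn2r genes with some olfactory receptor genes), chromosome 6 from 56.7 to 57.6 Mb, chromosome 6 from 89.9 to 90.6 Mb, or chromosome 13 from 22.2 to 23.4 Mb (Vmn1r genes). Neighbouring probes that start at most 500 bp apart were joined into regions of up to 2000 bp with at least 3 probes. This gave 211 regions out of 56653 on the array. They comprised 63 on chromosome 7, 38 in the first and 52 in the second window of chromosome 6, and 58 on chromosome 13. The windows were proposed with the difference between the 2 groups in these data already known, so every value of that difference below is a description, and no test was made on it.

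All animals were C57BL/6J mice. Dams of the group named FR were kept on 50% food restriction from gestation day 10 to 17, receiving that share of the chow eaten by the control dams, and control dams fed freely. Fetal livers were taken on gestation day 18, and each group was 1 pool, described as N = 6. DNA enriched by immunoprecipitation of methylated DNA was set against unselected genomic DNA of that pool, called the reference, in 2-colour hybridisations on 2 arrays per pool with the dyes exchanged. Slide 1 carried both pools in 1 dye orientation and slide 2 both in the other. Both arrays of a pool repeat the same DNA, so their spread leaves out the variation between animals, and no p-value can be given for a difference between pools. They are called the control pool and the FR pool from here on. The deposited labels give no liver marker that a DNA array could check.

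Vomeronasal receptors are G protein-coupled receptors of the sensory neurons of the vomeronasal organ, which detect pheromones. Vmn1r genes encode the V1R family, with a short outer part, and Vmn2r genes the V2R family, with a long outer domain. Both families stand in tandem clusters of related genes and pseudogenes, and Olfr genes encode the odorant receptors of the main olfactory epithelium. All 3 families are known for their expression in sensory neurons of the nose. Methylation of mammalian DNA is placed mainly on cytosines of CG dinucleotides, and immunoprecipitation of methylated DNA recovers a fragment better the more methylated CG dinucleotides it holds. A low recovery can therefore stand for little methylation or for few CG dinucleotides, and the array does not tell these apart.

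The promoters of the receptors show how few CG dinucleotides the receptor genes hold near their starts. In RefSeq's promoter windows on GRCm38.p6, which run from 250 bases before to 50 bases after the start of a gene, the motif CG (its own reverse complement) was counted. In gene order the receptors fall into a run from Vmn2r65 to Vmn2r79 on chromosome 7, interrupted by olfactory receptor genes and Folh1, a run from Vmn1r4 to Vmn1r20 and a run from Vmn1r40 to Vmn1r54 on chromosome 6, and a run from Vmn1r188 to Vmn1r223 on chromosome 13. A run was paired with a window by chromosome, receptor family and order, since coordinates cannot be carried between the builds. Receptors of a run, the printed ones included, may therefore lie outside its window, and no array region was matched to a single gene. From each run the first gene at the median CG count of its run is printed (with an even number of genes, at the lower of the middle pair of counts), and Klf15, a transcription factor gene that follows the run from Vmn1r40 to Vmn1r54 in gene order, is printed for contrast. Each line gives the 250 bases before the start, 5′ to 3′ on the gene's strand, with every CG in capitals.
Vmn2r65: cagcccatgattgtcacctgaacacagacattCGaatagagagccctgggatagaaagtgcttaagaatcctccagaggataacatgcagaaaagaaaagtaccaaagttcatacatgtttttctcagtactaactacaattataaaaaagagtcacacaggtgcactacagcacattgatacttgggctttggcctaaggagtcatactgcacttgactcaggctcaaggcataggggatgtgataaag
Vmn1r5: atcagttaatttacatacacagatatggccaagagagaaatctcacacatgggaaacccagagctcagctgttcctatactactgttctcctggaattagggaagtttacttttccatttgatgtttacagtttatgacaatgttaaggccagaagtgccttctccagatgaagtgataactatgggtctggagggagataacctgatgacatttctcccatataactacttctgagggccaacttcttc
Vmn1r41: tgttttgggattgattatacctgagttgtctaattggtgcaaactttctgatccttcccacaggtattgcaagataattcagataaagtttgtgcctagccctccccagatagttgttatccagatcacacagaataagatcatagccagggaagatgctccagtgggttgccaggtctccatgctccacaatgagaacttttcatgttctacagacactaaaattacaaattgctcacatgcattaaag
Vmn1r191: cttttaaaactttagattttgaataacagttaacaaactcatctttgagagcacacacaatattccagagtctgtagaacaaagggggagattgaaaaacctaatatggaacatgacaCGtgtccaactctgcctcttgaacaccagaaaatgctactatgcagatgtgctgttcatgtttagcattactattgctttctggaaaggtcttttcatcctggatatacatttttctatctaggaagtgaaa
Klf15: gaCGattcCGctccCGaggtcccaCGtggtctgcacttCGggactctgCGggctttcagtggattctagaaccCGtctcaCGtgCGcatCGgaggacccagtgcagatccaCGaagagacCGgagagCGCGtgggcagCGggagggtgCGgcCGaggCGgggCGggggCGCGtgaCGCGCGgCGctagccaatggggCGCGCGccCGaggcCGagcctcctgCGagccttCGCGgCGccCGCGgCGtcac

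These stretches are, on GRCm38.p6, chr7:84964010-84964259, minus strand for Vmn2r65; chr6:56970085-56970334, plus strand for Vmn1r5; chr6:89740638-89740887, plus strand for Vmn1r41; chr13:22179583-22179832, minus strand for Vmn1r191; and chr6:90462326-90462575, plus strand for Klf15. The printed stretch held 1 CG for Vmn2r65, 0 for Vmn1r5, 0 for Vmn1r41 and 1 for Vmn1r191, against 37 for Klf15. Over the whole 300-base window, the 205 Vmn1r promoters had a median of 1 CG, and 21.5% had none. The 117 Vmn2r promoters also had a median of 1, with 28.2% at none, and the 948 Olfr promoters a median of 1, with 33.3% at none. All 32851 promoters of the table together had a median of 7, and 5.43% had none, so 94.6% of promoters of this length hold the motif, against 78.5% for Vmn1r and 71.8% for Vmn2r.

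Within the runs, 13 of 15 receptor genes on chromosome 7 had a promoter entry, with 0 to 2 CG each. In the run from Vmn1r4 to Vmn1r20, 14 of 17 genes had an entry, and 8 of these 14 promoters held no CG at all. In the run from Vmn1r40 to Vmn1r54, 14 of 15 genes had an entry, with a median of 1.5 CG and 6 in the richest, Vmn1r54. On chromosome 13, 32 of 35 genes had an entry, with a median of 1 and 5 in the richest, Vmn1r216. Most of the other genes looked at, which were picked by name, had more CG than any receptor of the runs. Kbtbd2 had 37, Fkbp9 23, Nt5c3 8, Ppm1k 16, Txnrd3 21, Chst13 14, Zxdc 17 and Klf15 47. Aldh1l1 had 9, Slc41a3 8, Nox4 24, Abt1 21 and Zfp322a 22. Uroc1 with 0, Herc6 with 4 and Folh1 with 4 lay within the range of the receptors.

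**Figure D1:**
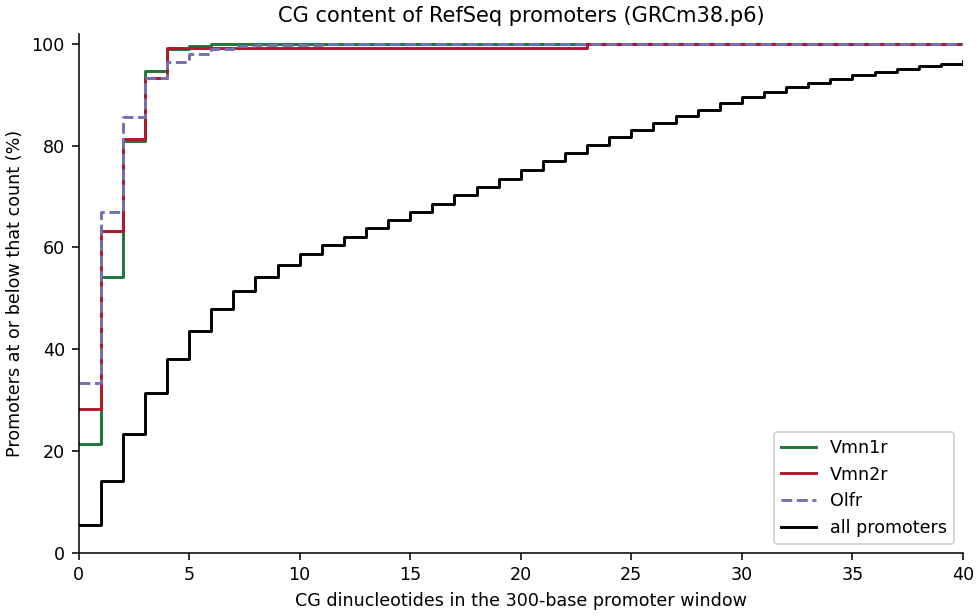
Cumulative share of RefSeq promoters (vertical axis, %) by the number of CG dinucleotides in the 300-base window (horizontal axis), for Vmn1r (205), Vmn2r (117), Olfr (948) and all 32851 promoters. The 3 receptor families lie together at the left with a median of 1 CG, and the line of all promoters passes 50% at 7 CG.

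On the arrays, enrichment was expressed as M, log2 of the immunoprecipitated over the reference signal of a probe, centred on the array median, and a region took the median M of its probes. Cluster regions gave low M. The median of the mean M over the 4 arrays was -0.92 for the 211 regions and -0.09 for the 56442 regions outside the windows. It was -1.16 on chromosome 13, -0.82 in the first chromosome 6 window, -0.76 on chromosome 7 and -0.52 in the second chromosome 6 window. When all regions of the array were ranked by M, 80.6% of the cluster regions lay in the lower 5 of 10 equal classes and 35.5% in the lowest 2.

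The lowest window was the same on every array. On chromosome 13 the median M of the control pool was -1.30 on slide 1 and -1.24 on slide 2, and that of the FR pool was -1.15 and -1.06. In the first chromosome 6 window these 4 values were -1.08, -0.80, -0.85 and -0.77, and on chromosome 7 they were -0.96, -0.48, -0.90 and -0.59. In the second chromosome 6 window they were -0.58, -0.58, -0.59 and -0.53. Chromosome 13 was thus the lowest on all 4 arrays. The second chromosome 6 window was the highest on 3 of them, and on the control array of slide 2 the chromosome 7 window stood above it. The chromosome 7 window shifted most between the slides, since the median change of its regions from slide 1 to slide 2 came to 0.39 for control and 0.27 for FR, against -0.06 and 0.00 for the regions outside.

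**Figure D2:**
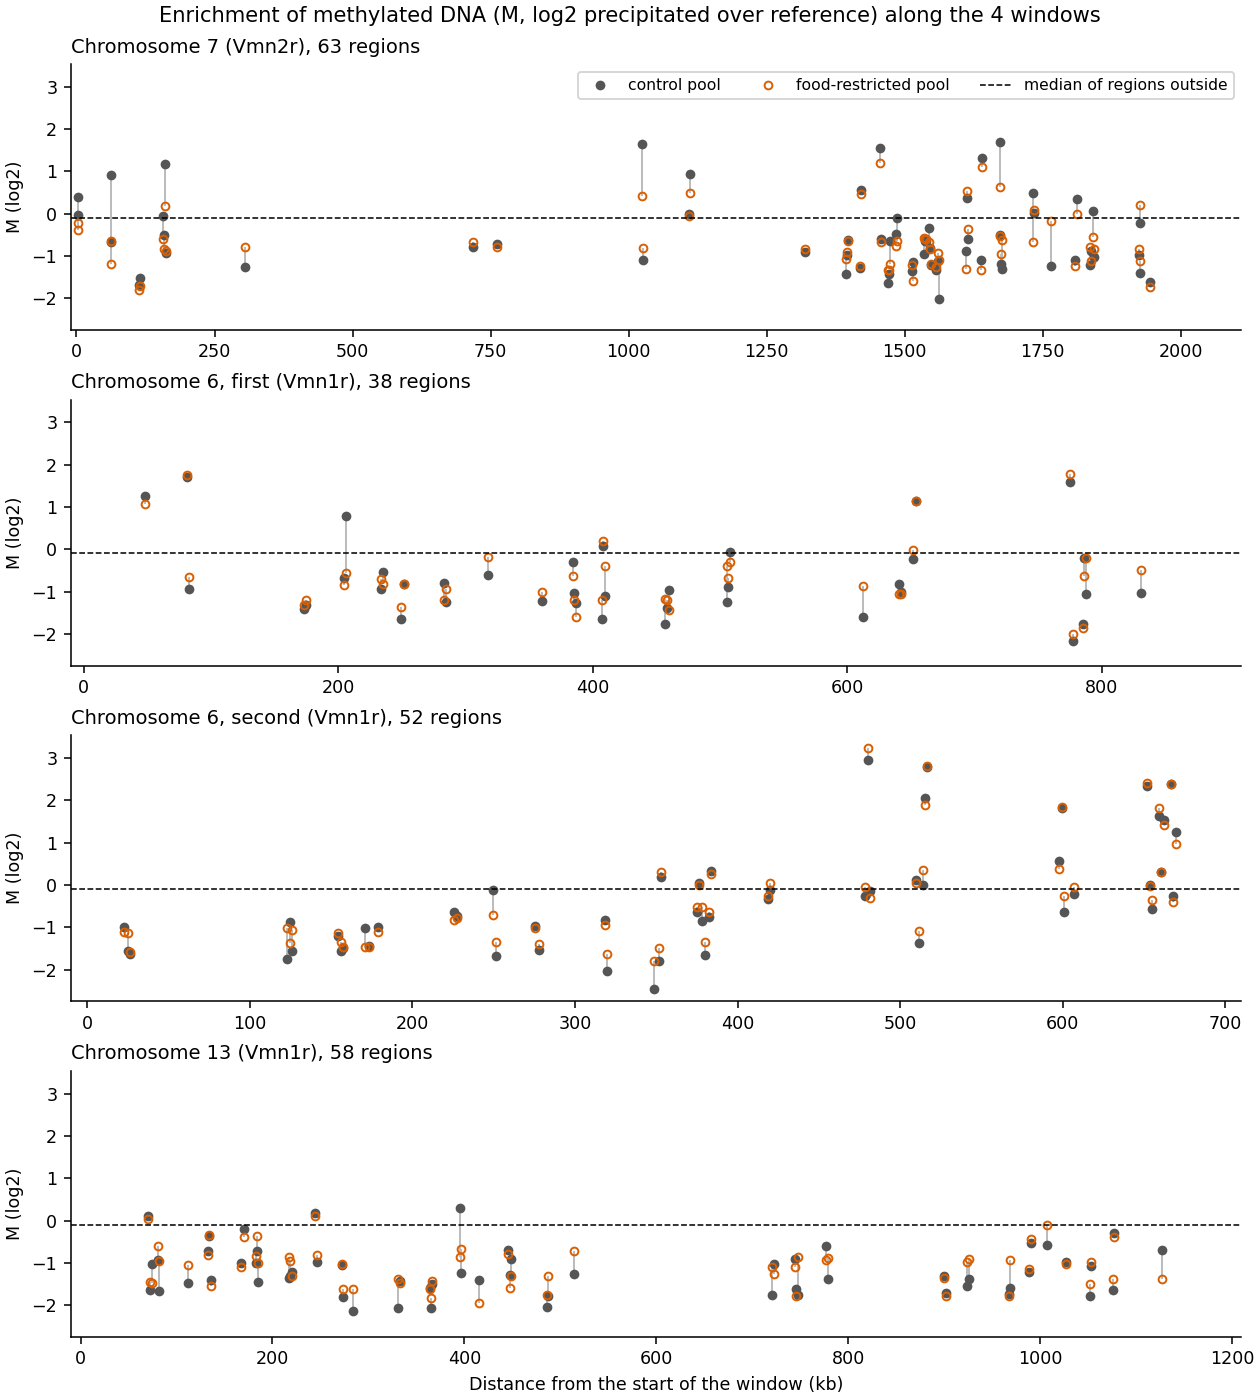
M of each region (vertical axis, log2, mean of the 2 arrays of a pool) against the distance of the region's middle from the start of its window (kb), with control in filled and food-restricted in open circles joined by a grey line, and the median of regions outside the windows dashed at -0.09. Most cluster regions lie below the dashed line, and many regions in the far part of the second chromosome 6 window lie above it. Some regions of each other window do so too, in the first chromosome 6 window both at its ends and in its middle.

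The windows on chromosome 6 were not uniform. They were cut into stretches after the values were seen, so the contrasts between stretches partly follow from the cuts and are a description. In the second window, the 21 regions from 89.9 to 90.25 Mb had a median M of -1.31 and none was above 1, whereas the 31 regions from 90.25 to 90.6 Mb had a median of 0.02 with 9 above 1. The highest regions of all 4 windows lay in that far stretch. The region chr6:90379757-90380893 had M of 2.90 and 3.01 in the control pool and 3.22 and 3.27 in the FR pool (slide 1, then slide 2). The region chr6:90416133-90417409 had 2.92 and 2.63 against 2.87 and 2.74. The 4 arrays of both regions were far above the regions of the same window up to 90.25 Mb, whose highest mean M was -0.41. The lowest of the window were chr6:90247772-90249056, at a mean M of -2.13, and chr6:90219267-90220067, at -1.83, both just before 90.25 Mb. Low regions were found past that cut too, such as chr6:90251375-90252503 at a mean M of -1.64.

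In the first chromosome 6 window the medians of the ends were close to that of the middle, and single regions at the ends were high. The 5 regions from 56.7 to 56.9 Mb had a median M of -0.80 and included chr6:56780770-56781796, with M of 1.77 and 1.66 in the control pool and 1.48 and 2.06 in the FR pool. The 6 regions from 57.4 to 57.6 Mb had a median of -0.69 and included chr6:57474223-57475848, with 1.38 and 1.81 against 1.69 and 1.85, and also the lowest regions of the window, chr6:57477386-57478040 at a mean M of -2.09 and chr6:57484421-57485645 at -1.80. Between them, the 27 regions from 56.9 to 57.4 Mb had a median M of -0.83 and 1 above 1. In RefSeq's gene order Kbtbd2, Fkbp9 and Nt5c3 precede Vmn1r4, 4930533I22Rik, Ppm1k and Herc6 follow Vmn1r20, and BC048671, Chst13, Uroc1, Zxdc, Cfap100 and Klf15 follow Vmn1r54. The windows may therefore hold parts of genes that are no receptors, and without an annotation of mm9 their regions could not be separated by gene.

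Chromosome 13 had no region with a mean M above 1. Its highest were chr13:22443283-22444656 at 0.14 and chr13:22270466-22270991 at 0.07, and its lowest were chr13:22564708-22565993 at -1.95 and chr13:22684779-22686529 at -1.89. On chromosome 7 the lowest were chr7:92111582-92113200 at -1.75 and chr7:93943226-93944147 at -1.67. Chromosome 7 had 4 regions above 1, and 3 of them had immunoprecipitated and reference signal near the background. The highest, chr7:93454599-93456256, was bright enough to measure, with 1.19 and 1.89 in the control pool and 0.52 and 1.88 in the FR pool. In the next, chr7:93640455-93641161 (mean M of 1.21), the background-subtracted immunoprecipitated signal was between -1.94 and 0.96 units and the reference signal between 0.37 and 3.45 units on the 4 arrays, so that its M is a ratio of signals at background. Outside the windows, 136 regions were dim in the immunoprecipitated channel in both pools and in the reference channel in at least 1 pool, and 31 of these had M above 1.

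Cluster regions were dim on this array, and this bears on every difference below. A region was called dim in a pool where over 50% of its probes were well above background, by the scanner software's flag, in the immunoprecipitated channel on neither array of that pool. By this rule 108 of the 211 regions (51.2%) were dim in both pools, against 9.04% outside, and 64 were measured in both. A further 39 were dim in 1 pool, 36 in the control pool alone and 3 in the FR pool alone, beside 4352 and 171 outside. The share dim in both pools was 77.8% on chromosome 7, 63.2% in the first and 25.0% in the second chromosome 6 window, and 37.9% on chromosome 13. In the control pool 16.3% and 16.9% of chromosome 7 probes had immunoprecipitated signal well above background (slide 1, then slide 2), and in the FR pool 24.3% and 24.1%. For probes outside the windows the control shares were 72.4% and 72.1%, and the FR shares 80.0% and 80.7%. The FR arrays therefore had the larger share on both slides, inside and outside the windows. Outside the windows their median background-subtracted immunoprecipitated signal was also larger, at 63.5 and 44.0 units against 39.3 and 29.7 in the control pool.

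The total genomic DNA used as reference was dim as well in part of the clusters. On slide 1 the reference was well above background at 67.5% of chromosome 7 probes in the control pool and 65.3% in the FR pool, and on slide 2 at 79.4% and 82.4%. The first chromosome 6 window was similar, at 68.6% and 69.4% on slide 1 and 82.4% and 84.7% on slide 2. Chromosome 13 reached 85.5% to 94.3%, and the second chromosome 6 window 94.2% to 98.4%, a range like that outside the windows (93.6% to 97.7%). The median background-subtracted reference signal of chromosome 7 probes on slide 1 was 37.4 units in the control pool and 42.2 in the FR pool, against 116 and 115 outside. Total genomic DNA is not selected for methylation. Probe sequences were not used here, so its relation to base composition or to near-identical copies was not tested. The regions covered a small part of each window, and no such share was computed outside the windows. Regions made up 3.33% of the chromosome 7 window and 4.53%, 8.48% and 5.80% of the other windows in the order named. The widest stretch between neighbouring regions was 412 kb, on chromosome 7. It may still hold probes that formed no region.

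**Figure D3:**
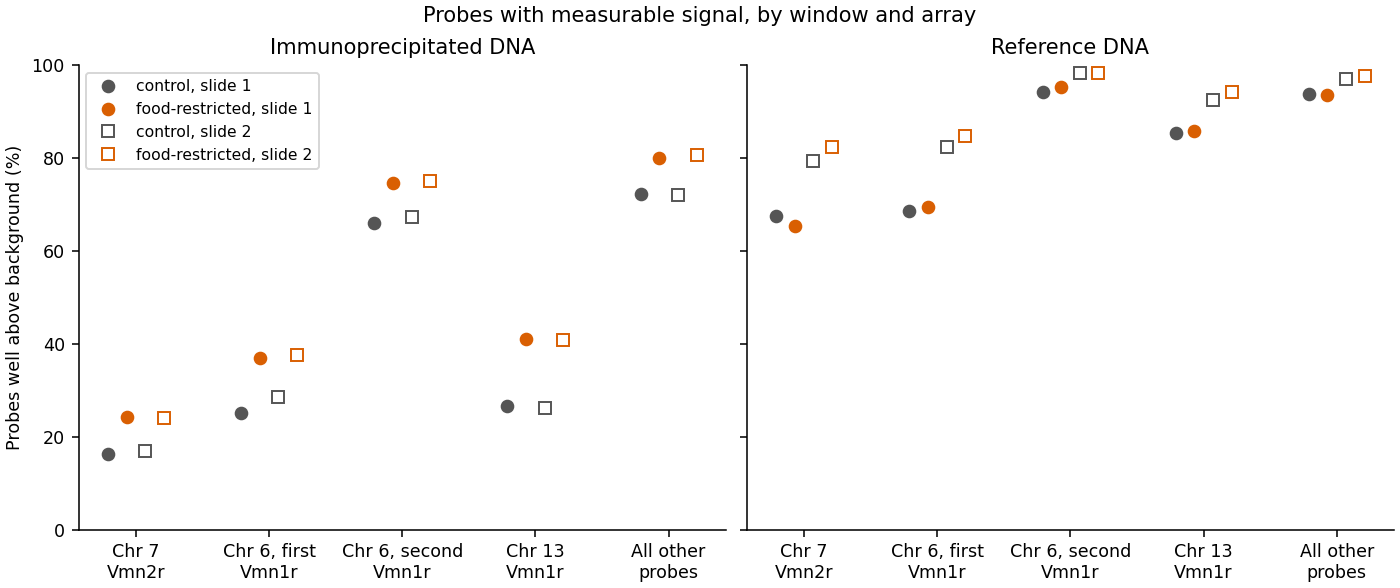
Share of probes well above background (vertical axis, %) in the immunoprecipitated (left) and reference channel (right), for the probes of each window and all other probes, with 1 symbol per array. On chromosome 7 the immunoprecipitated share lies between 16.3% and 24.3% and the reference share between 65.3% and 82.4%, both below the other probes (72.1% to 80.7% and 93.6% to 97.7%).

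The pools were compared by D, the M of FR less that of control on the same slide. Calls were made at a size of D of 0.5 or more (1.41-fold) in the same direction on slide 1 and slide 2, and regions past that size with opposite signs were counted as a gauge of noise. In the clusters 7 regions were called lower in the FR pool, or 3.32%, beside 0.643% of all 56653 regions, where 364 were called. Of the 7, 5 lay on chromosome 7, 1 in the first chromosome 6 window and 1 on chromosome 13. A further 10 member regions were called higher, or 4.74%, beside 4.55% of all regions, where 2580 were called. They were 2 on chromosome 7, 3 in the first and 2 in the second chromosome 6 window, and 3 on chromosome 13. Opposite signs were found at 5 member regions, or 2.37%, beside 0.717% of all regions. The split of the calls depended on the centring: on the mode of M in place of its median, which moved the median D of all regions from 0.06 to -0.12, 15 member regions were lower and 2 higher, beside 2.33% and 1.55% of all regions. With no centring 7 were lower and 16 higher, beside 0.40% and 7.19%.

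The share of higher calls was thus near the background, and the shares of lower calls and of opposite signs both lay above it. The spread of D was also wider in the clusters: its SD over the 211 regions was 0.49 on slide 1 and 0.50 on slide 2, against 0.37 on both slides outside. Over regions dim in both pools these SDs were 0.54 and 0.55 in the clusters and 0.49 and 0.50 outside, and over regions measured in both pools 0.35 and 0.35 in the clusters and 0.34 and 0.34 outside. D of the slides correlated over regions at r = 0.34 (n = 211) inside and 0.34 outside, a description over regions that are read by the same probes on both slides. The members had no common direction. D was below 0 on both slides at 45 regions, above 0 on both at 71, and of different sign at 95. The median of the mean D was -0.04 on chromosome 7, 0.11 and 0.06 in the windows of chromosome 6 and 0.08 on chromosome 13, beside 0.06 for all other regions.

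**Figure D4:**
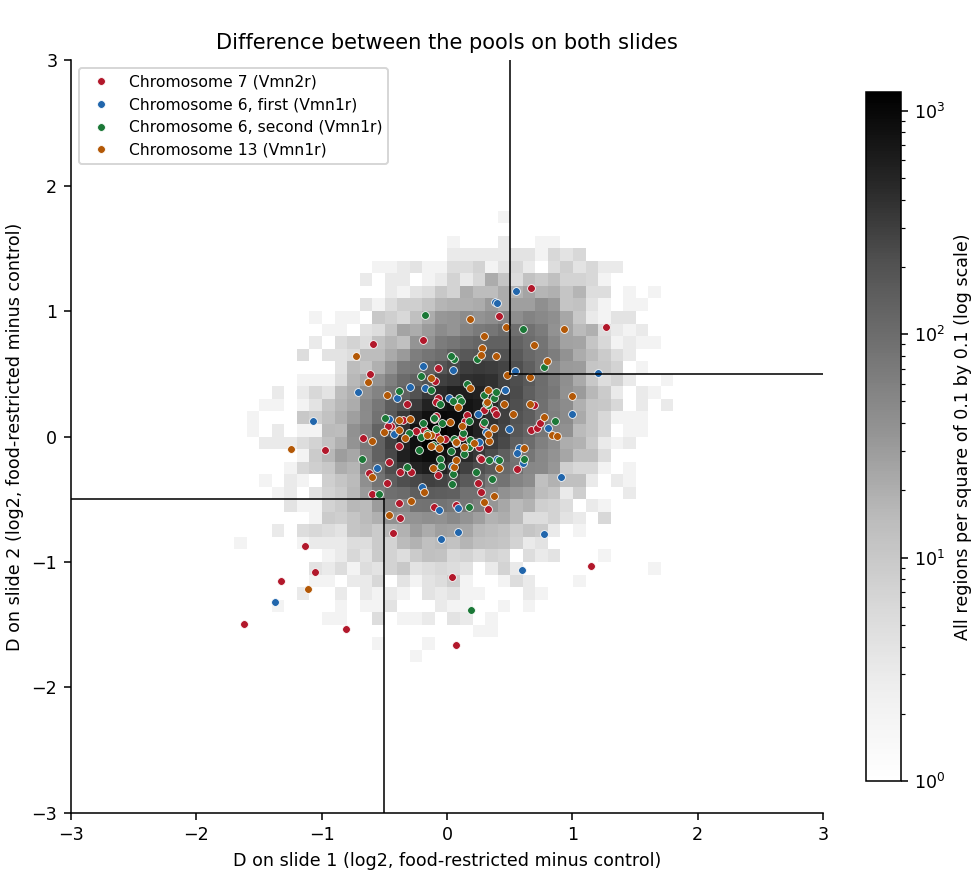
D on slide 1 (horizontal axis) against D on slide 2 (vertical axis), both log2, for the 211 cluster regions as coloured points over the density of all 56653 regions in grey (log scale), with black corners at the call size of 0.5. The lower corner holds 7 cluster regions, 5 of them on chromosome 7, at the thin edge of the grey density, and the upper corner holds 10.

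Most of the lower calls came from regions with hardly any signal. In the region with the largest difference, chr7:92062550-92063654 (5 probes), M was 0.86 and 0.98 in the control pool and -0.76 and -0.52 in the FR pool, slide 1 first. Its background-subtracted immunoprecipitated signal was -0.19 and 0.70 units in the control pool and 0.65 and 1.87 in the FR pool, and its reference signal was 3.26 and 6.67 against 11.7 and 15.7. Control and FR arrays did not overlap in M or in the reference signal, but none of the probes had immunoprecipitated signal well above background in either pool. D was -1.62 and -1.50, and the centred reference signal was higher in the FR pool by 1.49 and 1.19. Probe by probe, 3 of 5 had D below 0 on both slides and 1 had D of -0.5 or less on both.

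The next in size, chr6:56906146-56906427 (3 probes), was of the same kind. M was 0.73 and 0.84 in the control pool and -0.64 and -0.48 in the FR pool, and the reference signal was 5.29 and 6.85 units against 11.9 and 15.2. The pools did not overlap in either measure, and again none of its probes had immunoprecipitated signal well above background. D was -1.37 and -1.32, and the reference difference was 1.28 and 1.19.

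The other 4 lower regions of chromosome 7 followed this pattern. At chr7:93023602-93024545 (4 probes) M was 0.88 and 2.41 for control and -0.44 and 1.26 for FR, so the pools overlapped between slides and were ordered only within them. At chr7:93671850-93672314 (3 probes) M was 1.01 and 2.36 against -0.04 and 1.28, and the control reference signal was 2.74 and -2.99 units against 13.2 and 4.47. At chr7:92159819-92160193 (3 probes) M was 1.02 and 1.33 against -0.12 and 0.46, with a reference signal of 0.63 and 4.88 against 8.43 and 7.97 units. Pools overlapped in M between slides at the former region and not at the latter, and the control reference was at or barely above background in both. At chr7:93731654-93732616 (4 probes) M was 0.00 and 0.99 in the control pool and -0.81 and -0.55 in the FR pool, and the reference signal was 8.98 and 9.35 units against 13.8 and 20.4. The pools did not overlap there. Over these 4 regions D ran from -1.54 to -0.81 and the reference difference from 0.72 to 1.67.

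The remaining lower region, chr13:22594864-22595656 (3 probes), differed from the others. M was 0.04 and 0.54 for control and -1.07 and -0.68 for FR, with D of -1.11 and -1.22 and no overlap. The region median of its reference was bright, at 57.8 and 71.2 units in the control pool and 76.5 and 92.3 in the FR pool. Each of its 3 probes was well above background in that channel on at least 1 array of each pool. Its immunoprecipitated signal was not lower in the FR pool, at 7.23 and 8.76 against 17.9 and 13.4 units, and the centred difference of that channel was 0.52 and 0.03. Only 1 of its 3 probes had D below 0 on both slides, at -1.43 and -1.75, while the other two had 0.32 and -0.28, and 0.71 and -0.004. Since a region's M is the median of its probes on each array, a different probe supplied that median in each pool.

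Across the clusters, 7 regions had a centred reference signal at least 0.5 higher in the FR pool on both slides, and 6 of these were called lower. All 7 were dim in both pools. Outside the windows 339 regions had such a reference difference and 41 of these were called lower. The reference signal is the denominator of M, so this overlap is partly fixed by the arithmetic of D. The median reference difference was 0.20 on chromosome 7 and 0.09 outside, and it was 0.14 and 0.24 on the separate slides of chromosome 7 against 0.07 and 0.08 outside. Regions as dim as these were called lower more often on the whole array as well: 165 of 5211 regions dim in both pools were lower, or 3.17%, and 6 of the 108 such member regions. Where the reference too was dim in a pool, 44 of 147 regions of the whole array were lower, or 29.9%, and 12 had opposite signs, or 8.16%. In the clusters 11 regions were of that kind, 9 of them on chromosome 7, and 5 were called lower and 1 had opposite signs. Among the 64 member regions measured in both pools 0 were called lower, beside 170 of 46816 outside, or 0.36%. With a share that low outside, 0 of 64 does not set the members apart. Of the 64, 34 lay in the second chromosome 6 window, which may hold parts of genes that are no receptors.

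**Figure D5:**
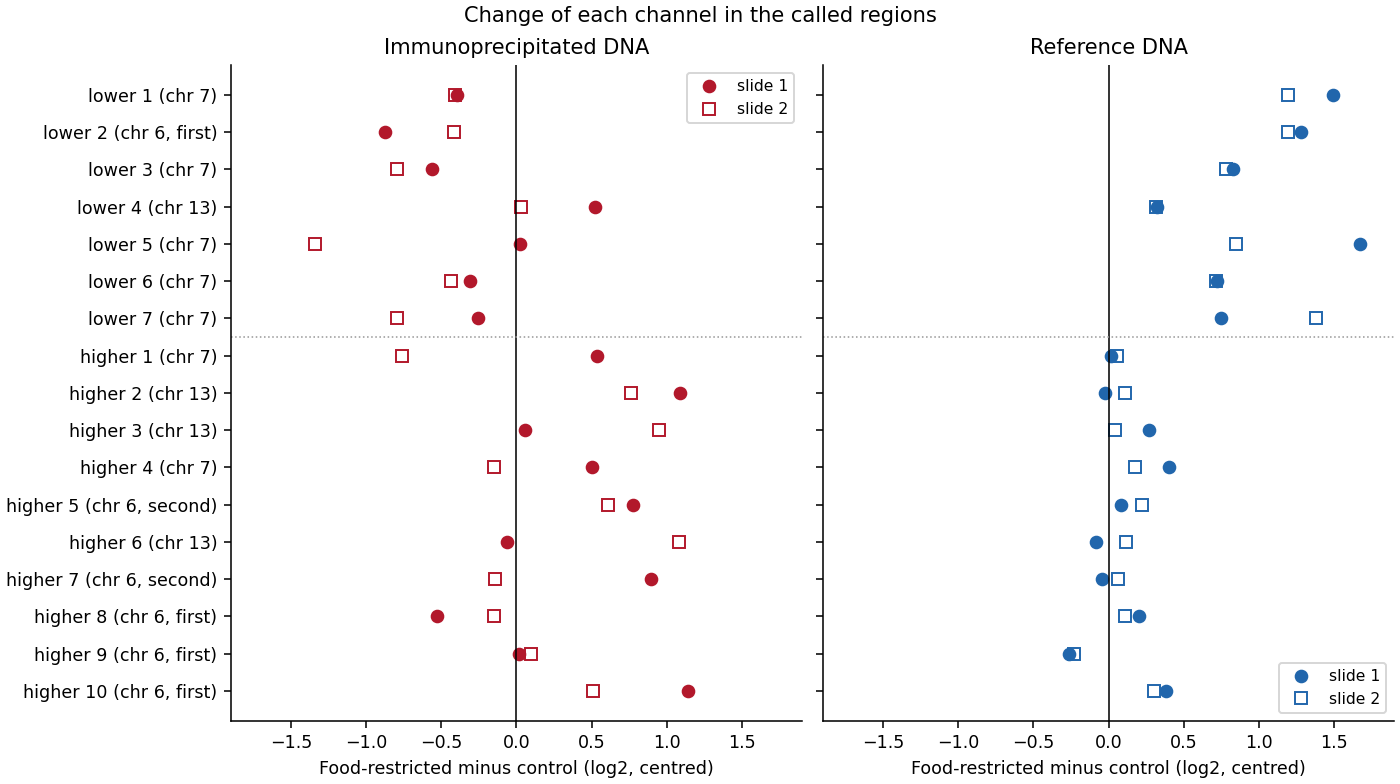
Food-restricted minus control difference (horizontal axis, log2, centred per array) of the immunoprecipitated channel (left) and the reference channel (right) in the 7 lower and 10 higher regions, numbered by the smaller size of D, for slide 1 (filled circles) and slide 2 (open squares). In 6 of the 7 lower regions the reference difference lies between 0.72 and 1.67, and in the higher regions it lies between -0.27 and 0.40.

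The higher calls had a brighter reference. Of the 10, 3 were measured in both pools, 5 were dim in the control pool alone and 2 in both. At chr7:93764135-93764558 (3 probes) M was -1.26 and -1.20 in the control pool and 0.00 and -0.33 in the FR pool, without overlap, which is 2.10-fold. The channel differences did not point one way, since the immunoprecipitated channel differed by 0.53 on slide 1 and -0.76 on slide 2, with a reference difference of 0.02 and 0.05. Its mean D of 1.07 became -0.17 with loess within arrays, -0.11 in the immunoprecipitated channel alone and 0.52 with means over probes. At chr6:57487622-57488299 (5 probes) M was -0.94 and -1.16 against -0.39 and 0.00, or 1.81-fold, and the region median of the immunoprecipitated channel differed by -0.53 and -0.15. Its mean D of 0.85 became -0.31 with loess, -0.065 with the normexp background model, -0.34 in the immunoprecipitated channel alone and 0.066 with means over probes. At chr6:57530322-57531689 (8 probes) M was -0.97 and -1.09 against -0.42 and -0.56, or 1.45-fold, with a reference difference of -0.27 and -0.23, and its mean D of 0.53 became 0.097 with normexp and 0.058 when only the immunoprecipitated channel was used. These are the regions of the far end of the first chromosome 6 window and 1 region of chromosome 7, and their region medians of the 2 channels need not add up to D.

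In 3 of the dim higher regions the immunoprecipitated channel was higher in the FR pool by at least 0.5 on both slides. At chr13:22946731-22947848 (8 probes) M was -1.86 and -1.67 in the control pool and -0.93 and -0.81 in the FR pool, with an immunoprecipitated signal of 6.82 and 6.01 units against 22.8 and 15.4. The pools did not overlap, and 3 of the 8 probes were well above background in the control pool and 6 in the FR pool. At chr6:90022024-90023724 (7 probes) M was -1.58 and -1.92 against -0.97 and -1.06, with 8.90 and 7.40 units against 26.7 and 17.4. At chr6:57204744-57205901 (6 probes) it was -1.57 and -0.95 against -0.36 and -0.44, with 5.25 and 5.76 units against 18.7 and 12.3. No fold was given for these, since the control pool had only a bound and the bound came to under 1. That was also so for chr13:22281094-22282055, with D of 0.69 and 0.73, and chr6:90247772-90249056, with 0.77 and 0.56, while chr7:93561473-93561822, with 0.67 and 1.19, and chr13:22530468-22531427, with 0.80 and 0.60, were dim in both pools.

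The regions nearest the call size were taken on each side of it, by the smaller size of D. Among higher regions, chr6:57204744-57205901, with 1.21 and 0.51, and chr6:57530322-57531689, with 0.54 and 0.53, were just inside, and chr13:22416322-22417829, with 0.48 and 0.49, and chr13:22596100-22597459, with 0.66 and 0.48, just outside. The last of these starts within 500 bp of the end of the lower region chr13:22594864-22595656 and had the opposite direction of D. Among lower regions, chr7:93731654-93732616, with -0.81 and -1.54, and chr7:92159819-92160193, with -1.14 and -0.87, were just inside. Just outside were chr13:22615007-22615856, with -0.47 and -0.63, and chr6:90024231-90024779, with -0.54 and -0.46. The reference difference ran from 0.72 to 1.38 over the lower regions just inside, and from -0.08 to 0.46 over those just outside. No member region that was lower on both slides had its smaller D between -0.81 and -0.47.

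The 5 regions with opposite signs had D of the call size that the slides did not share. At chr7:93319314-93319857 D was 1.15 on slide 1 and -1.03 on slide 2, and at chr6:57340178-57341399 it was 0.60 and -1.06. At chr6:57353755-57354360, which had D of 0.78 and -0.78, the reference signal was 10.7 and 4.29 units in the control pool and 3.76 and 0.69 in the FR pool, giving a reference difference of -0.89 and -0.54. The remaining pair, chr13:22563225-22564597 and chr7:93395185-93396675, had D of -0.72 and 0.64, and of -0.59 and 0.74. All 5 were dim in both pools. Among regions measured in both pools, the reference difference was lowest at chr6:90379757-90380893, at -0.48 and -0.59, where D was 0.32 and 0.25.

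With the scanner software's background subtraction replaced by the normexp model (offset 50), 0 of the 211 regions were called lower and 1 higher, beside 1 lower and 1540 higher on the whole array. With loess within arrays 2 were lower and 2 higher, with no lower call on chromosome 7, beside 0.42% and 8.52% of all regions. When probes with a reference not well above background on any array were left out, 169 member regions remained, 2 were lower and 12 higher (0.23% and 5.20% over all regions), and none of the 7 lower regions kept 3 probes. When regions needed 5 or more probes, 1 lower region was left. The low M of the clusters had the same sign in these settings but not the same size, at -0.0053 relative to the outside regions with normexp, whose offset shrinks the ratios of dim signals by its construction, -0.21 with loess and -1.06 without the dim reference probes, against -0.83 as processed here.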

How the data were processed

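The 4 arrays, 2 per pool, were read from the deposited scanner files. Per the file headers, these were made with Agilent Feature Extraction 10.5.1.1 on mm9 and hold the intensity of each channel after background subtraction and dye scaling. M was log2 of immunoprecipitated over reference intensity, with channels identified from the dyes that the titles name and each array's median set to 0, over 415749 of 415814 probes (65 outlier flags left out). The number of arrays limits the precision. In the log2 value table that the authors deposited, used as an alternative, the columns of the FR pool on slide 1 and the control pool on slide 2 hold each other's values within 0.001, so each was assigned to the scanner file it equals.

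D was taken within a slide, which serves as the replicate block. No test was run, since each group was 1 pool. The members, windows and promoter sets were chosen with earlier results of these data known. Named regions were the 2 highest and 2 lowest M per window, and up to 8 lower and 8 higher calls by the smaller size of D. They also included the 3 largest and 3 smallest reference differences, and 2 on each side of the call size. Regions with opposite signs were named, and the stretches of the chromosome 6 windows were cut, after their values were seen. Alternatives used limma 3.58.1 (normexp, loess with span 0.3) and Python 3.11.15, tested on simulated data. Promoters and gene order came from RefSeq, GRCm38.p6. An mm9 genome, an mm9 annotation and probe sequences were not used here.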

Additional observations from a re-analysis of the deposited data

How the results depend on the processing

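The counts of lower and higher regions in the clusters were 7 and 10, beside 0.64% and 4.55% of all regions. Each setting below is followed by its own shares of all regions. The counts were 0 and 1 with normexp (0.0018% and 2.72%), 2 and 2 with loess (0.42% and 8.52%), and 15 and 2 with quantile normalization between arrays (1.03% and 1.18%), with centring on the mode (2.33% and 1.55%) and after taking off the running median of D along M (1.01% and 1.09%). They were 5 and 5 with means over probes (0.19% and 3.11%), 1 and 0 of 60 regions without dim immunoprecipitated probes (0.15% and 3.90%), 15 and 23 at a call size of 0.3 (2.68% and 12.2%), and 5 and 0 at a call size of 1 (0.042% and 0.19%). No centring gave 7 and 16 (0.40% and 7.19%), leaving out dim reference probes 2 and 12 of 169 (0.23% and 5.20%), and 5 or more probes per region 1 and 8 of 163 (0.51% and 4.34%). With 1 slide alone, 24 to 27 regions were lower and 29 to 34 higher (3.75% to 4.49% and 12.4% to 13.8%). With no replicate block, each pool set against the other pool of the other slide, 6 were lower and 9 higher (0.44% and 3.96%), and 5 of the 7 lower and 7 of the 10 higher regions were still called. That block is a shared slide, so it pairs hybridisations and not animals.

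The median D of chromosome 7 was -0.04 and became 0.039 with loess, -0.15 with quantile normalization, -0.23 with the mode, 0.045 with no centring, -0.16 with the running median, 0.057 without dim reference probes and -0.18 without dim immunoprecipitated probes. The median M relative to the outside regions was -0.83 and became -0.0053 with normexp, -0.21 with loess, -1.06 without dim reference probes and -0.51 without dim immunoprecipitated probes. The median reference difference of chromosome 7, 0.20, was -0.013 with normexp and kept its sign in the other settings that gave it. The mean D changed sign at 8 called regions. With loess it was 0.12 at chr7:92159819-92160193, 0.12 at chr7:93671850-93672314, -0.17 at chr7:93764135-93764558 and -0.31 at chr6:57487622-57488299. With normexp it was -0.054 at chr6:57204744-57205901, -0.065 at chr6:57487622-57488299, -0.046 at chr13:22281094-22282055 and -0.036 at chr13:22530468-22531427. With the immunoprecipitated channel alone it was -0.11 at chr7:93764135-93764558, -0.34 at chr6:57487622-57488299 and 0.28 at chr13:22594864-22595656. The cause of these sign changes was not tested. The normexp offset of 50 units exceeds the median immunoprecipitated signal of the cluster probes on every array (6.90 to 14.2 units), and no other offset was run. With the value table the same 7 lower and 10 higher regions were called. That table repeats the ratios of the scanner files within 0.001, so this is no separate support. With the immunoprecipitated channel alone 5 were lower and 9 higher (1.72% and 3.33%), but only 1 of the 7 and 3 of the 10 were still called. A gap of 250 bp gave 9 lower and 13 higher of 254 regions (0.74% and 6.51%). Signal over background limited 108 of the 211 regions.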
